A study of Homo sapiens with 2 samples.

Results

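Netrins are laminin-like guidance proteins. The genes described here are 4 of the netrin genes, NTN1, NTN4, NTNG1 and NTNG2. With them are 6 netrin receptor genes, UNC5A, UNC5B, UNC5C, UNC5D, DCC and NEO1. These 10 genes were chosen by family from the 19881 protein-coding genes of the GENCODE annotation in GRCh38. OTX2 peaks were assigned to a gene when they overlapped its gene record extended by 50 kb on each side by at least 1 bp, which gave 218 of the 137412 peaks deposited, none of them shared by 2 of the genes.

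Secreted netrins steer growing axons and migrating cells from a distance or by contact. DCC and its relative neogenin (NEO1) are single-pass receptors through which netrin-1 attracts axons, while the UNC5 receptors mediate repulsion, alone or together with DCC. Several of these proteins are also described as dependence receptors, which promote cell death when no ligand is bound. The netrin-Gs are anchored to the membrane by a lipid, bind the netrin-G ligands at synapses and do not bind DCC or UNC5. In the cerebellum, from which medulloblastoma arises, netrin receptors take part in the migration of granule cell precursors.

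D283 is an established medulloblastoma cell line with features of Group 3 and Group 4 tumors, and it was grown as tumorspheres with EGF and basic FGF. The tumorspheres received no treatment and expressed OTX2, a homeodomain transcription factor. Chromatin was crosslinked, sheared and immunoprecipitated with an OTX2 antibody (Abcam ab21990), and an input sample of the same kind of chromatin was sequenced without antibody. The data comprise a single ChIP library and a single input library of this one cell line, so no value has a replicate error, and neither OTX2 loss nor gene expression was analysed here.

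After the authors kept 1 fragment per position, 61259377 ChIP fragments and 22521186 input fragments remained. The authors' peak calling used MACS2 with 0.05 as the cutoff on the q-value. A peak is described by its height, given as the number of ChIP fragments over the summit, and by its fold enrichment, the ratio of the scaled height to the local input level. Over all peaks, the median height was 53 fragments (range 15 to 461) and the median fold enrichment was 6.10. Intervals are exact Poisson 95% intervals for counts and cover counting error only.

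The promoters of 3 of the genes are shown first, those with at least 200 bases before the gene record. In each of them, the OTX2 peak at the transcription start site (TSS) covers most of these bases. The sequences are from RefSeq (GRCh38.p14), run 5′ to 3′ on the strand of the gene and end directly before the GENCODE gene record. Capitals mark the bases that lie inside the OTX2 peak. The stretches are chr12:95791190-95791405 on the minus strand for NTN4, which encodes a laminin-like netrin of basement membranes, chr5:176810309-176810518 on the plus strand for UNC5A and chr18:52339947-52340196 on the plus strand for DCC.
NTN4: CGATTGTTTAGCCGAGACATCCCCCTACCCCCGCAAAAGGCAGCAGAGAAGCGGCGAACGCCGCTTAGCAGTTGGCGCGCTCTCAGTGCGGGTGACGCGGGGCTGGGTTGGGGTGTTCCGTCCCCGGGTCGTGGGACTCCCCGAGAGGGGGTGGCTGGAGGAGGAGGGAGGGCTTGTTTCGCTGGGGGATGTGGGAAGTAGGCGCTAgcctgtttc
UNC5A: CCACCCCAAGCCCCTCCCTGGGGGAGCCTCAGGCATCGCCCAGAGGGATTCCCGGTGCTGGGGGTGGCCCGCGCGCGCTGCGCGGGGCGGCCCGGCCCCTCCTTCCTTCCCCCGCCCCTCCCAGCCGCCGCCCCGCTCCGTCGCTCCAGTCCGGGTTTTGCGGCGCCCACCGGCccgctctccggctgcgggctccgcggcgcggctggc
DCC: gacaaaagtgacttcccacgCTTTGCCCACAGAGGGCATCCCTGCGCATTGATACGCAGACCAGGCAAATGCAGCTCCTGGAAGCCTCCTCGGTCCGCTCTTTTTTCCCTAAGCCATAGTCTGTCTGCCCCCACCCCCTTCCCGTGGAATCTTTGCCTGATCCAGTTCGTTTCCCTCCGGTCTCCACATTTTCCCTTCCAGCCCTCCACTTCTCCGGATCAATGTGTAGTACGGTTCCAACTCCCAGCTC

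Of these bases, 207 of 216 lay inside the peak for NTN4, 174 of 210 for UNC5A and 230 of 250 for DCC. The peaks were low, with 21 fragments (interval 13.0 to 32.1) for NTN4, 34 (23.6 to 47.5) for UNC5A and 24 (15.4 to 35.7) for DCC. The fold enrichments were 2.35, 4.33 and 3.74, in the same order. In all, RefSeq promoters (250 bases before to 50 bases after a start) were matched for 6 of the 10 genes, as 9 sequences for NTNG1, NTN4, UNC5C, UNC5A, NEO1 and DCC. No promoter was matched for NTN1, NTNG2, UNC5B and UNC5D, and NTN1 was the gene without a peak near its TSS. An OTX2 peak overlapped 6 of the 9 sequences, 1 for each matched gene, against 30.0% of all 35116 promoters. The median fold enrichment of these 6 peaks was 3.52, against 5.77 over all promoters with a peak.

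The letters TAATCC, to which the OTX2 homeodomain is known to bind, and TAATCT were searched on both strands of these promoters. None of the 9 sequences held either one. Of all promoters, 12.8% held TAATCC or TAATCT and 6.36% held TAATCC, and 9 sequences are too few to show a difference from such shares. Over all promoters, those that overlapped a peak held one of these sequences in 13.3% of cases and those that did not in 12.5%. The median GC content was 63.7% for the 9 promoters (range 52.0% to 80.7%) and 58.7% for all promoters. No match says only that these letters are not in these windows.

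OTX2 peaks were found in the extended window of all 10 genes, and 94.1% of all protein-coding genes had at least 1. The number per gene ranged from 1 at NTN1 to 51 at DCC, in windows that together spanned 4.34 Mb. Because the gene records differ widely in length, from 70.4 kb for UNC5A to 1196 kb for DCC, the counts were set against the length of each window. UNC5C had 103 peaks per Mb (interval 76.3 to 135), NTN4 98.6 (62.5 to 148) and UNC5B 89.3 (52.0 to 143). UNC5D followed with 60.5 (43.2 to 82.4), NTNG1 with 49.5 (31.0 to 74.9) and DCC with 39.4 (29.3 to 51.8). NEO1 had 22.6 (9.77 to 44.6), NTNG2 21.9 (5.97 to 56.1), UNC5A 11.7 (1.42 to 42.4) and NTN1 3.10 (0.0785 to 17.3).

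The intervals of neighbours in this order overlapped throughout, so the order of adjacent genes was not resolved at these counts. Between the ends of the order they did not overlap, as for UNC5C against NTNG1, DCC, NEO1, NTNG2, UNC5A and NTN1. The median over the 10 genes was 44.4 peaks per Mb, below the 51.2 of all protein-coding genes and the 54.6 of the 3648 protein-coding genes of at least 100 kb. Pooled over the windows of the 10 genes, the density was 50.2 peaks per Mb. In the gene record alone, the median of the 10 genes was 46.4, against 46.6 for all protein-coding genes and 53.5 for the long ones. The distance to all protein-coding genes thus depended on the flanks and on the use of a median. The long genes are the nearer comparison, since the median record was 238 kb for the 10 genes and 27.6 kb for all protein-coding genes. Among the long genes, the 10th percentile was 17.0 peaks per Mb and the 90th was 103, so that UNC5C and NTN4 lay near the upper end of this range and UNC5A and NTN1 below the lower end. The value of UNC5A rests on 2 peaks and was 25.9 peaks per Mb when the record was extended by 100 kb.

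**Figure D1:**
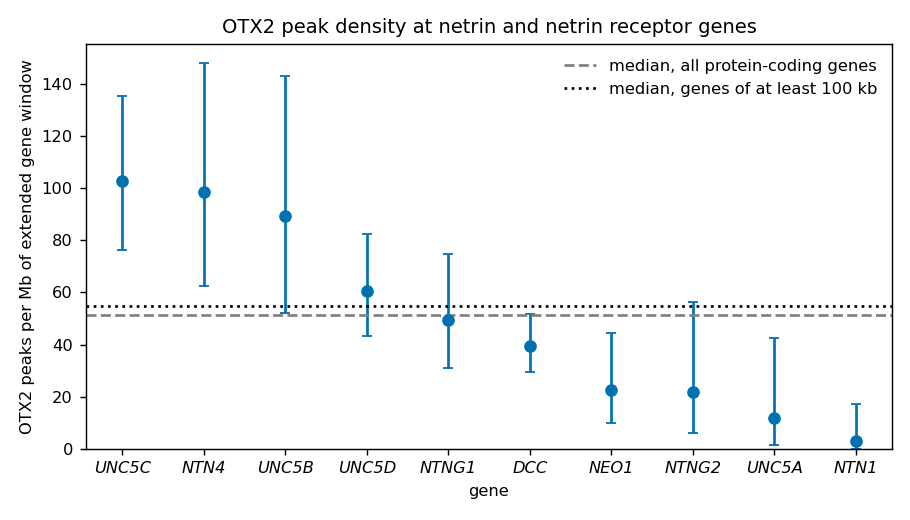
OTX2 peaks per Mb of the extended gene window (y axis) for the 10 genes (x axis, ordered by value); points are the counts per Mb and bars their exact Poisson 95% intervals, with the medians of all protein-coding genes (dashed, 51.2) and of those of at least 100 kb (dotted, 54.6). UNC5C, NTN4, UNC5B and UNC5D lie above both lines, and NTN1 is lowest at 3.10.

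Near the TSS, counted between 5 kb before and 2 kb after it, 9 of the 10 genes had an OTX2 peak, all but NTN1. The same window held a peak in 57.2% of all protein-coding genes and in 63.8% of those of at least 100 kb. With 10 genes chosen as a family and 1 library, these shares are given side by side without a test. When any annotated transcript start was used, the count was also 9, against 66.6% of all genes. In a narrower window of 1 kb to each side it was again 9, against 46.9%.

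Most of these TSS peaks were low. The tallest peak in the TSS window had a median of 34 fragments over the 9 genes with one, and 54 over the 11367 protein-coding genes with one. Its percentile among those genes was 2.39 for NTN4, 3.40 for UNC5D, 5.48 for DCC and 6.84 for NEO1. It was 21.6 for UNC5A, 31.2 for UNC5B and 54.8 for NTNG1, while it reached 82.4 for NTNG2 and 99.8 for UNC5C. With a −log10 q of at least 5, 5 of the 10 genes kept a TSS peak, against 52.0% of all genes, and the 4 lost were NTN4, UNC5D, DCC and NEO1. With a fold enrichment of at least 5, 4 of the 10 kept one, namely NTNG1, NTNG2, UNC5B and UNC5C, against 38.5% of all genes.

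NTN1 and NTN4 encode secreted netrins, and their windows were among the sparsest and the densest of the 10. NTN1 (ENSG00000065320, chr17:9021510-9244000, plus strand) encodes netrin-1, the ligand of DCC and the UNC5 receptors, and had 1 peak. It lay in intron 6, the last intron, at chr17:9225634-9225892, 204 kb from the TSS, with 31 fragments (interval 21.06 to 44) and a fold enrichment of 4.77. This density was at percentile 1.86 of the protein-coding genes of at least 100 kb. The region within 2 Mb on each side of NTN1 held 27.7 peaks per Mb, against 55.5 for the whole of chromosome 17, which was the lowest regional value of the 10 genes.

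NTN4 (ENSG00000074527, chr12:95657807-95791189, minus strand) had 23 peaks, of which 1 was at the TSS, 12 were intronic and 10 distal. The peak at the TSS, 0.135 kb upstream, was the one shown in capitals above and had a −log10 q of 1.65, the lowest of the TSS peaks of these genes. The tallest peak of the gene was in intron 7, 116 kb into the record at chr12:95674589-95675479, with 236 fragments (interval 207 to 268) and a fold enrichment of 28.4. The tallest distal peak, at chr12:95607814-95609141 beyond the 3′ end, had 105 fragments and a fold enrichment of 15.7. The flanks of NTN4 held 110 peaks per Mb and the record 89.97.

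The netrin-G genes differed in number of peaks, with 22 at NTNG1 and 4 at NTNG2, in windows of 444.9 and 182.5 kb. Their intervals per Mb, 31.0 to 74.9 and 5.97 to 56.1, overlapped. NTNG1 (ENSG00000162631, chr1:107140007-107484923, plus strand) encodes the ligand of NGL-1 (LRRC4C) and had 22 peaks, 18 of them intronic. The summit nearest its TSS lay 710 bp downstream, with 27 fragments at 3.39-fold enrichment. A second peak that reached into the TSS window had its summit at 2332 bp, with 58 fragments and a fold enrichment of 8.12. The tallest peak was in intron 3, at chr1:107358588-107359097, with 142 fragments (interval 120 to 167) and a fold enrichment of 16.5. Beyond the 3′ end, at chr1:107529379-107529994, a distal peak reached 136 fragments and a fold enrichment of 17.8, the highest of this gene.

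NTNG2 (ENSG00000196358, chr9:132162058-132244526, plus strand) encodes the ligand of NGL-2 (LRRC4) and had 4 peaks. The tallest was the TSS peak, 0.322 kb upstream at chr9:132161475-132161973, with 105 fragments (interval 85.9 to 127) and a fold enrichment of 13.0. The other peaks had 36, 26 and 23 fragments. By height and by fold enrichment, the highest peak of NTNG2 was the one at the start of the gene.

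**Figure D2:**
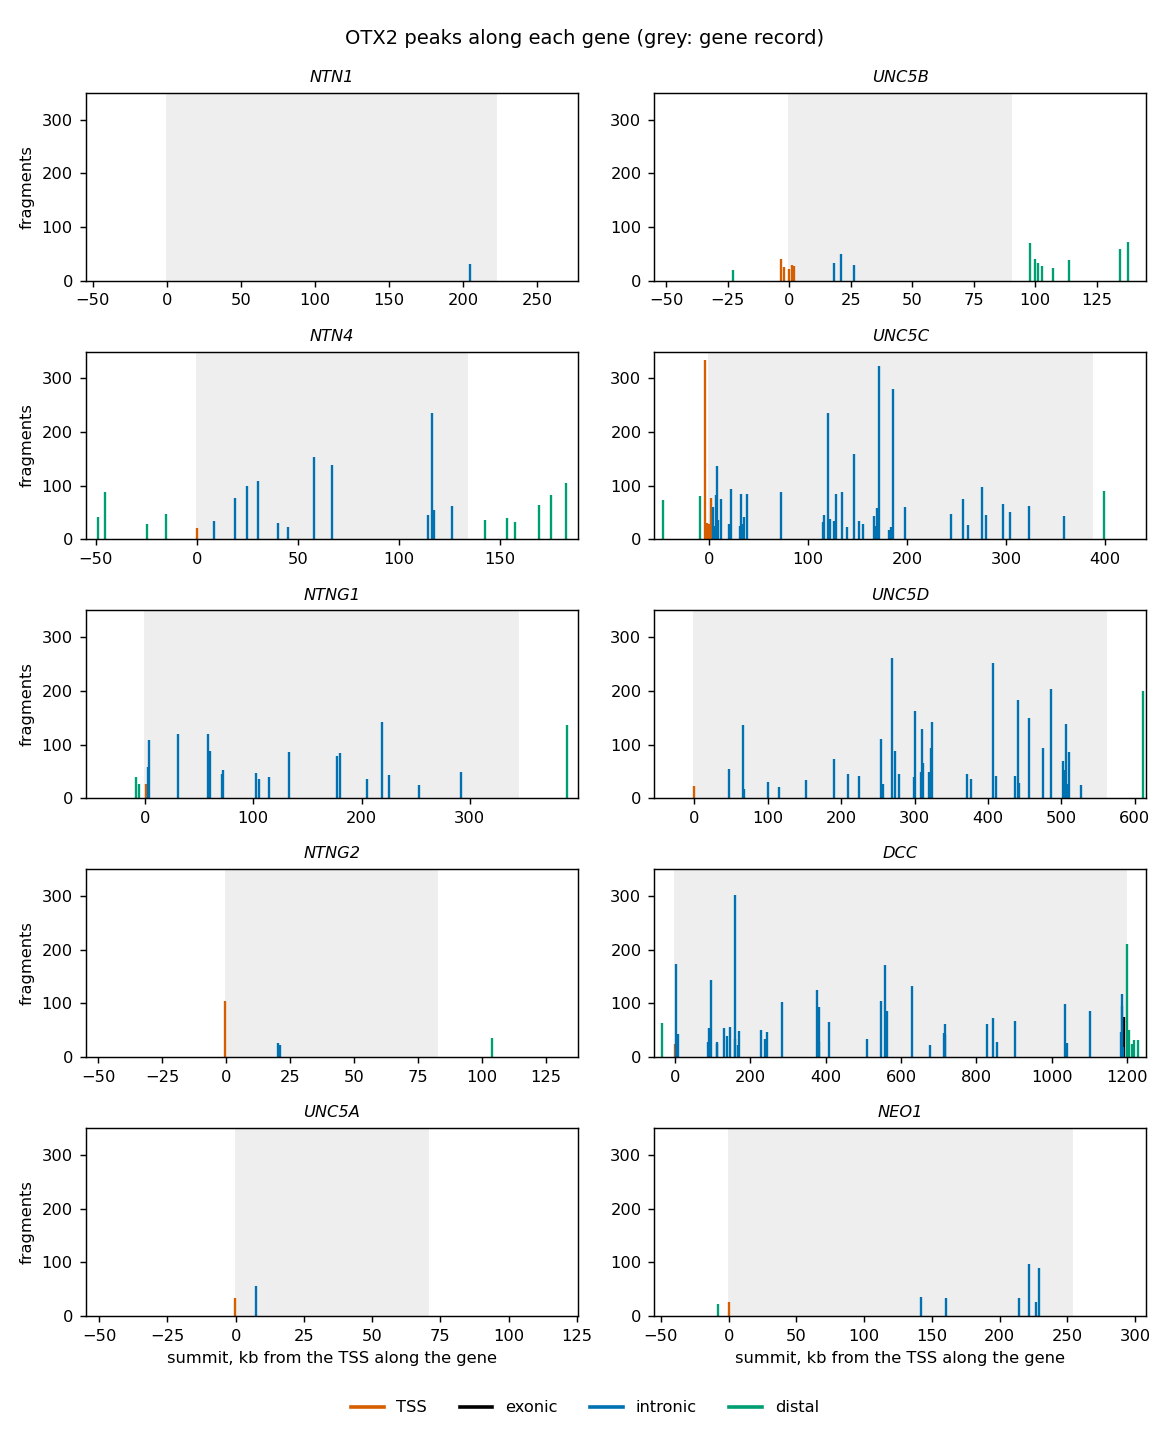
Height of each OTX2 peak in ChIP fragments (y axis) against the distance of its summit from the TSS in kb along the gene (x axis), 1 panel per gene, with the gene record in grey and lines coloured by class (TSS, exonic, intronic, distal). The tallest lines are those of UNC5C, at 334 fragments upstream of the TSS and 324 in intron 1, while NTN1 has a single line of 31 fragments.

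The UNC5 genes encode 4 related receptors with a death domain, and their peak densities spanned nearly the whole range of the family. UNC5A (ENSG00000113763, chr5:176810519-176880898, plus strand) had 2 peaks. One lay 0.223 kb upstream of the TSS with 34 fragments, and the other in intron 1, 7446 bp downstream, with 55 fragments (interval 41.4 to 71.6) and a fold enrichment of 3.19. The local input under the intronic peak was 12, above the median of 5 over all peaks. This peak had the larger height of the 2 and the smaller fold enrichment.

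UNC5B (ENSG00000107731, chr10:71212570-71302864, plus strand) had 17 peaks and the densest TSS window beside UNC5C, with 5 peaks of 21 to 40 fragments. The tallest of them, 3.25 kb upstream at chr10:71209126-71209487, had a fold enrichment of 6.05. Only 3 peaks were intronic, all in intron 1, and 9 were distal. Of the distal peaks, 5 lay inside or near the TSS of SLC29A3, a nucleoside transporter gene downstream of UNC5B, among them the tallest peak of the window, with 72 fragments (interval 56.3 to 90.7) at chr10:71350327-71350688. The record of UNC5B held 55.4 peaks per Mb and its flanks 120, and 12 of the 17 peaks lay in the flanks.

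UNC5C (ENSG00000182168, chr4:95162504-95549206, minus strand) had 50 peaks, of which 42 were intronic, 5 were at the TSS and 3 distal. The tallest peak of all 10 genes lay 3.46 kb upstream of its TSS, at chr4:95552293-95553480, with 334 fragments (interval 299 to 372) and a fold enrichment of 29.1, at percentile 99.4 of all peaks. The other 4 TSS peaks of UNC5C had 27 to 77 fragments. In intron 1, a peak 172 kb from the TSS at chr4:95376798-95378071 had 324 fragments (interval 290 to 361) and a fold enrichment of 26.6, and another 186 kb from the TSS had 280 fragments and a fold enrichment of 22.99. Intron 1 held 34 summits in 213 kb, or 160 per Mb, whereas the later introns held 9 in 164 kb, or 55.0 per Mb. The 34 include the summit 1977 bp from the TSS, which was classed as TSS and not as intronic. The densest 100 kb of the window held 20 peaks, the highest such number among the 10 genes. The tallest distal peak of UNC5C, with 91 fragments, lay inside BMPR1B, a bone morphogenetic protein receptor gene.

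UNC5D (ENSG00000156687, chr8:35235475-35796550, plus strand) had 40 peaks, of which 38 were intronic. The peak at its TSS was low, with 22 fragments (interval 13.8 to 33.3) and a fold enrichment of 3.02, while 5 of its other peaks were among the tallest 10% of the file, the most of any of the 10 genes. The tallest was in intron 1, 269 kb from the TSS at chr8:35503454-35504802, with 261 fragments (interval 230 to 295) and a fold enrichment of 27.6. Intron 1 held 60.6 summits per Mb and the later introns 79.7. The only distal peak had 200 fragments, but a fold enrichment of only 9.25 over a local input of 15.

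DCC (ENSG00000187323, chr18:52340197-53535899, plus strand) had the most peaks of the 10 genes, 51, in the longest record. Of these, 43 were intronic, 6 distal, 1 exonic and 1 at the TSS. The peak at the TSS had a fold enrichment of 3.74, as given above, whereas a peak in intron 1 only 3907 bp from the TSS had 174 fragments and a fold enrichment of 25.9. The tallest peak, in intron 1 at chr18:52499616-52500543, had 302 fragments (interval 269 to 338) and a fold enrichment of 22.3. Intron 1 held 53.5 summits per Mb and the later introns 27.1. The longest stretch between summits ran for 133 kb, from 903 to 1036 kb. The tallest distal peak lay just past the 3′ end of the record, at chr18:53537571-53538332, with 211 fragments (interval 184 to 242) and a fold enrichment of 19.5.

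NEO1 (ENSG00000067141, chr15:73051710-73305205, plus strand) encodes neogenin, which also binds repulsive guidance molecules, and had 8 peaks. Its TSS peak, 217 bp downstream, had 25 fragments (interval 16.2 to 36.9) and a fold enrichment of 3.65. No further summit lay in the 142 kb that followed, which included all of intron 1. The 6 intronic peaks lay in the later introns, and the tallest of them, in intron 19 at chr15:73273339-73273745, had 97 fragments (interval 78.7 to 118) and a fold enrichment of 14.5. DCC and NEO1, which are related in sequence and bind the same ligand, therefore had intervals of 29.3 to 51.8 and 9.77 to 44.6 peaks per Mb, which overlapped.

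**Figure D3:**
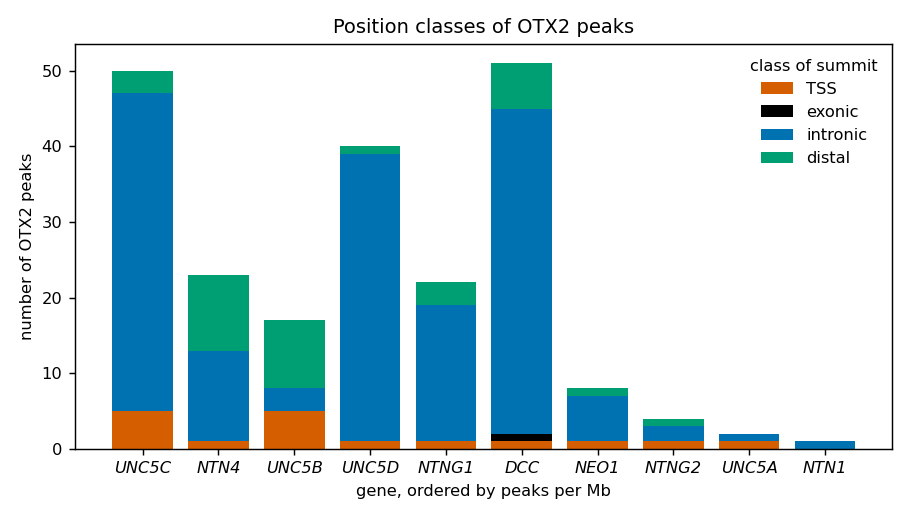
Number of OTX2 peaks (y axis) at each of the 10 genes (x axis, ordered by peaks per Mb), stacked by the class of the summit. Intronic peaks make up 42 of the 50 at UNC5C, 38 of the 40 at UNC5D and 43 of the 51 at DCC, whereas UNC5B has 9 distal peaks of 17.

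By class, 166 of the 218 summits were intronic, which is 76.1% (Wilson 95% interval 70.1% to 81.3%). A further 34 were distal (15.6%), 17 were near the TSS (7.80%) and 1, at DCC, was exonic. The Wilson interval treats the summits as independent and does not cover the spread between genes. Among genes with over 2 peaks, the intronic share ranged from 17.65% at UNC5B to 95.0% at UNC5D. Of the intronic summits, 80 were in intron 1 and 86 in later introns. Long introns make up most of these records. Intron 1 and the later introns span 411 and 774 kb in the 1296 kb window of DCC. In UNC5D they span 313 and 238.5 kb of 661 kb, and in UNC5C 213 and 164 kb of 487 kb. The intronic share was not set against the intron length of all windows, so it does not measure a preference for introns. It was highest in the long genes UNC5D (95.0%), DCC (84.3%) and UNC5C (84.0%) among those with over 2 peaks. Of the distal summits, 7 lay in the record or near the TSS of another protein-coding gene.

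The classes differed in height. Peaks near the TSS had a median of 27 fragments (range 21 to 334) and a median fold enrichment of 3.48. Intronic peaks had a median of 53 fragments (range 17 to 324) and a median fold enrichment of 6.39, and distal peaks a median of 41 fragments (range 20 to 211). Of the 17 peaks near the TSS, UNC5B and UNC5C held 5 each. At NTNG2 alone the TSS peak was above the intronic median, with 105 against 24.5 fragments. Class medians were not computed over the whole file, so the difference is not shown to be particular to these genes. Over all 218 peaks the median was 48 fragments and a fold enrichment of 5.86, against 53 and 6.10 in the whole file. Peaks above the 90th percentile of the file, at 165 fragments, numbered 14, or 6.42%. They were 5 peaks of UNC5D, 4 of UNC5C, 4 of DCC and 1 of NTN4, and 11 of the 14 were intronic. NTN1, NTNG1, NTNG2, UNC5A, UNC5B and NEO1 had none.

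**Figure D4:**
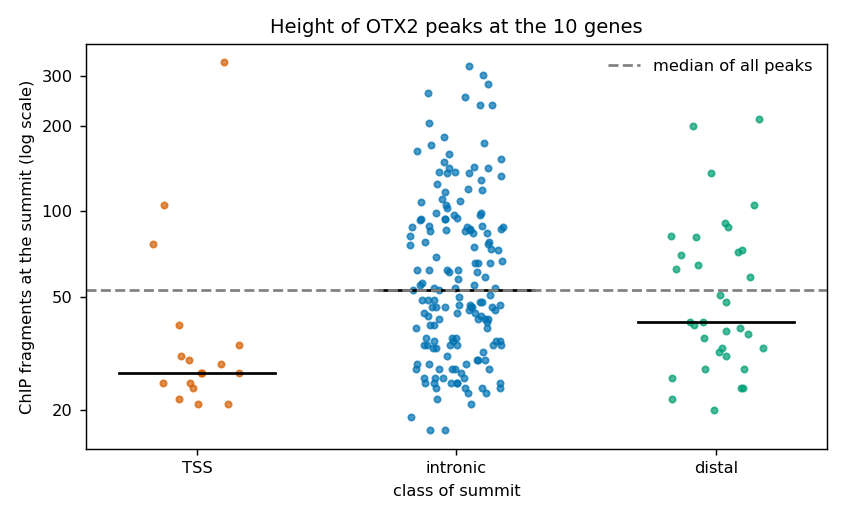
Height in ChIP fragments (y axis, log scale) of the TSS, intronic and distal peaks of the 10 genes by class of summit (x axis); each point is a peak, black lines are the class medians (27, 53 and 41 fragments) and the dashed line is the median of all peaks (53 fragments). The TSS peaks cluster below the dashed line except for 3 points, at 77, 105 and 334 fragments.

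The local input level bears on the fold enrichments, and its part in the differences between the genes was not tested. It had a median of 5 under the peaks of the 10 genes and 5 under all peaks, with a floor of 3.98. Values of at least 3 times the floor were found under 8 of the 218 peaks, 4 of them at UNC5C and 1 each at NTN4, NTNG1, UNC5A and UNC5D, whereas 4.22% of all peaks had such a value. A peak of UNC5C 121 kb from the TSS had 236 fragments over a local input of 14, and its fold enrichment of 11.6 was below that of a 236-fragment peak in NTN4 with a local input of 5.15. The local input around NTN1 was near the floor, with a median of 3.99 under the peaks within 2 Mb against 6.67 for chromosome 17, and around UNC5D it was 4.84 against 8.03 for its chromosome. Copy number in this cell line and peak density in these regions cannot be told apart with 1 input library.

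Other genes of netrin signaling were described in the same way. Of 29 such genes, 22 had an OTX2 peak near the TSS (75.9%, against 57.2% of all protein-coding genes), and the median density was 69.8 peaks per Mb (range 0 to 168), with 22 of the 29 above the median of all genes. Among the 13 other ligands and receptor partners, 9 had a TSS peak, and the median was 66.6 peaks per Mb. Among the 16 cytoplasmic effectors, 13 had one, and the median was 87.4. The 4 netrin genes of the family had a median of 35.7 and the receptors of 49.9, below both of these lists. The netrin genes NTN3 (58.3 peaks per Mb) and NTN5 (161) were counted among the other ligands, so the netrin median does not include them. The 29 genes were shorter than the family, with a median record of 53.9 kb, and the lists were not tested against each other.

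The highest fold enrichments near the TSS among these 29 genes were found at 4 effectors and 1 receptor partner. APPL1, an adaptor that binds DCC, had a TSS peak of 122 fragments (interval 101 to 146) and a fold enrichment of 17.7. TRIO, a guanine nucleotide exchange factor that acts downstream of DCC, had 169 fragments (interval 145 to 197) and a fold enrichment of 15.7. The peak of TRIO was counted because it overlapped the TSS window, but its summit lay more than 5 kb upstream of the TSS. By its summit, it would not be classed as TSS. FLRT3, a membrane protein that binds UNC5 receptors, had 126 fragments and a fold enrichment of 15.7, and SIAH1, a ubiquitin ligase that targets DCC for degradation, had 101 fragments and a fold enrichment of 15.1. FYN, a kinase that phosphorylates DCC, had 98 fragments and a fold enrichment of 12.9. Among the netrin and receptor genes, only the TSS peak of UNC5C had a higher fold enrichment than the first 4 of these, and only those of UNC5C and NTNG2 had a higher one than FYN.

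**Figure D5:**
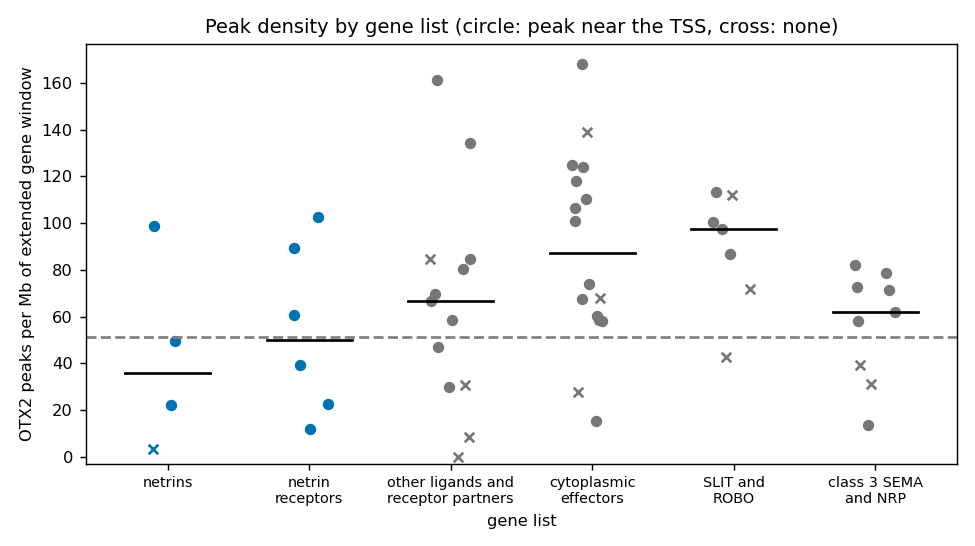
OTX2 peaks per Mb of the extended gene window (y axis) for the netrins, the netrin receptors, other genes of netrin signaling and similar guidance families (x axis); circles are genes with a peak near the TSS, crosses genes without one, black lines list medians, and the dashed line the median of all protein-coding genes (51.2). The medians of the netrins (35.7) and the receptors (49.9) lie below that line and those of the other lists above it. The netrin genes NTN3 and NTN5 are shown with the other ligands.

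As like families, the SLIT ligands with their ROBO receptors and the class 3 semaphorins with the neuropilins were counted in the same windows. A TSS peak was present in 4 of the 7 SLIT and ROBO genes and in 7 of the 9 semaphorin and neuropilin genes, against 9 of 10 for the netrins and their receptors and 57.2% of all protein-coding genes. The median density was 97.4 peaks per Mb (range 42.9 to 113) for SLIT and ROBO genes and 61.8 (13.7 to 82.1) for semaphorin and neuropilin genes, against 44.4 (3.10 to 103) for the 10 genes. The order of the 3 families by TSS peaks depended on the setting. With a −log10 q of at least 5 the counts were 5 of 10 netrins and receptors, 4 of 7 SLIT and ROBO genes and 6 of 9 semaphorin and neuropilin genes. The share of all protein-coding genes was then 52.0%. With any transcript start the counts were 9 of 10, 7 of 7 and 9 of 9, against 66.6% of all protein-coding genes. The differences were not tested.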

How the data were processed

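OTX2 binding in D283 tumorspheres was measured by ChIP-seq, with 1 library for the antibody and 1 for the input. According to the labels, reads were aligned by the authors to GRCh38 (bowtie2 2.2.4), and MACS2 (2.1.0.20140616) was run on paired fragments with 0.05 as the q-value cutoff. The study states that blacklisted locations were masked. The peak numbers in the deposited list have 0 gaps, so they do not show where this was done. The deposited pileup is a signal, the scaled fragment coverage at the summit. Fold enrichment, as deposited, is a ratio of pileup to local input, and −log10 q-values were taken from the deposited list. Each fragment added 0.735 to the pileup, so 100% of pileups were read back as whole fragments (tolerance 0.01). Without duplicates, the ChIP library had 2.72 times the fragments of the input. No interval was computed for a fold enrichment.

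Gene positions were the GRCh38 exon positions recorded in GENCODE release 44, and promoters were from RefSeq (GRCh38.p14). Summits were classed first as TSS (5 kb upstream to 2 kb downstream of the 5′ end of the gene record), then as exonic or intronic, then as distal. The local input was (pileup + 1) divided by fold enrichment, minus 1. Promoter bases were printed where at least 200 lay before the gene record. Peak counting was tested on simulated peaks, where 200 of 200 genes given a peak were found. Tables were handled with pandas 2.3.3 and numpy 2.4.6 in Python 3.11.15, intervals computed with scipy 1.17.1, and plots drawn with matplotlib 3.10.9.

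Named were the 10 genes, the tallest TSS, intronic and distal peak of each, the neighbouring genes that hold the latter, and the 5 pathway genes whose TSS peaks ranked first by fold enrichment. Of the neighbours, 1 is not reported. Other peaks and NTN3, NTN5, LRRC4, LRRC4C were named after their values were seen. The members and lists were chosen with earlier results of these data known. No test was made, because each condition had 1 library. Stricter thresholds, other windows and other gene records were tried as alternatives.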

Additional observations from a re-analysis of the deposited data

How the results depend on the processing

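No paired analysis was possible because each condition had 1 library, and no library could be left out. The number of genes with a TSS peak was 9 of 10, 5 when a −log10 q of at least 5 was required, 4 when the fold enrichment had to be at least 5, and 9 under the 5 other alternatives. The share of all protein-coding genes was 57.2%, and it was 52.0% with the q cutoff and 38.5% with the fold cutoff. It was 66.6% with any transcript start and 46.9% within 1 kb. With a fold enrichment of at least 5, 127 of the 218 peaks were left, and the median density was 28.5 peaks per Mb, against 29.4 for all protein-coding genes and 33.5 for those of at least 100 kb. Under the other alternatives the number of peaks was 175 to 271 and the median density 39.1 to 46.4. The matching medians were 44.4 to 51.8 for all protein-coding genes and 47.6 to 54.6 for those of at least 100 kb. The median of the 10 genes came nearest to that of all protein-coding genes in the gene record alone, at 46.4 against 46.6. The density of 6 of the 10 genes moved beyond its counting interval with the stricter fold, and of 0 under the other alternatives. With this fold UNC5B had 31.5 peaks per Mb and lay below UNC5D and NTNG1. UNC5A, with 2 peaks, had 25.9 with an extension of 100 kb, 5.87 without peaks of high local input and 0 with the stricter fold. NTN4 lay above UNC5C with both stricter thresholds, and 5 instead of 4 genes lay above the median of all genes under these thresholds, in the gene record alone and with an extension of 100 kb. The intronic share was 61.3% with an extension of 100 kb, since more flank was counted, and 72.5% to 81.1% otherwise. Promoter matches numbered 0 under both motif choices. For the compared families, an alternative chosen after seeing the data moved the SLIT and ROBO genes with a TSS peak from 4 of 7 to 7 with any transcript start and to 2 within 1 kb, and the semaphorin and neuropilin genes from 7 of 9 to 9 with any transcript start and to 3 with the stricter fold or within 1 kb. With a −log10 q of at least 5 they were 4 of 7 and 6 of 9, so the netrins and receptors, at 5 of 10, no longer had the highest share. With the stricter fold, 4 of 7 SLIT and ROBO genes stood against 4 of 10.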
